A study of Rattus norvegicus with 20 samples.

Results

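The 10 genes described here encode membrane proteins that move sterols, phospholipids and bile salts into and out of liver cells. They are Abcg5, Abcg8, Abca1, Abcg1, Scarb1, Abcb11, Abcb4, Abcc2, Abcc3 and Slc10a1. They were found by gene symbol in the annotation of the array, where they had 16 probe sets among 14217 named genes. Each gene was read from its brightest probe set, the one with the highest mean over all 20 rats, and the others served as a check. All 10 passed to the tests, and no diet result was used to choose among their probe sets.

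Liver RNA came from 20 male Sprague-Dawley rats that arrived at 4 weeks of age and were fed their diets for 21 days, with 5 rats in each of 4 groups. The TF group ate tofu and fish oil, the TS group tofu and soybean oil, the CF group casein and fish oil, and the CS group casein and soybean oil. All diets held 200 g of protein and 150 g of fat per kg, and those with fish oil held 50 g of it per kg. The tofu was the whole freeze-dried food and brought its own soybean oil. The tofu diets kept some casein and held slightly less sucrose and energy per kg. Tofu against casein is therefore a contrast of foods and not of purified proteins. Rats with extreme food consumption had been left out of the arrays by the study's methods, each array held 1 rat, and the rats were without food for a short time before dissection. The comparisons ask whether the protein source, the oil source, or both together went with different mRNA levels of these transporters. Each value is a z score, the log of a probe set's signal standardized within its array, and a difference of 0.2 corresponds to 1.41-fold by the study's methods. A probe set near 0 lies in the middle of its array's signals and says nothing of copies per cell.

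Bile is made when hepatocytes pump bile salts, phospholipid and cholesterol across the canalicular membrane, the face of the cell that lines the bile canaliculi. Abcb11 exports bile salts, Abcb4 moves phosphatidylcholine into the outer leaflet of that membrane, and the obligate pair Abcg5 and Abcg8 exports cholesterol and plant sterols. On the blood side Slc10a1 takes bile salts back up, Abcc3 can return conjugates to blood, Abca1 and Abcg1 load lipoproteins with cholesterol, and Scarb1 takes cholesterol from HDL.

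Abcg5 and Abcg8 lie head to head on rat chromosome 6, and the stretch between their starts is printed because both genes, which had the largest differences among the 10, begin at its ends. In the GRCr8 assembly Abcg8 runs on the minus strand from 15698448 to 15717730 and Abcg5 on the plus strand from 15717936 to 15743376. The 205 bases between them, at chr6:15717731-15717935, are given 5′ to 3′ on the plus strand from RefSeq. Capitals mark AGATAA, the letters of a GATA motif.
Abcg8-Abcg5 intergenic stretch: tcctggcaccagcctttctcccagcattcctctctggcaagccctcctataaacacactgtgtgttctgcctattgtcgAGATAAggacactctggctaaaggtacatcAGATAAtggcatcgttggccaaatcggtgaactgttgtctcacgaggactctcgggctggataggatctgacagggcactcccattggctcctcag
The motif stood at 2 places, 80 and 110 bases from the start of Abcg8, or 121 and 91 bases from that of Abcg5. On either strand AGATAA was found in 11.6% of 33469 rat promoter windows of 300 bases, and in 1.09% more than once. A TATAAA also occurred once, on the plus strand, 48 bases from the Abcg8 start and 153 from the Abcg5 start. On either strand 14.2% of windows had at least 1. The letters of the nuclear receptor half-site AGGTCA, in 16.2% of windows, had no match on either strand of the stretch. The GC content was 52.2%, against a median of 51.7% over the windows. A match is a description of letters only. Promoter windows were at hand for 6 of the 10 genes.

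Abcg5 and Abcg8 were higher in rats fed tofu than in rats fed casein, each by over 0.4 in z, and were the transporters called different between the protein sources. The other 8 transporters, among them the pumps for bile salts (Abcb11) and phospholipid (Abcb4), were not called for protein. In no transporter was a difference between the oils called. The rats fed tofu and fish oil were the highest in both sterol half-transporters and the rats fed casein and soybean oil the lowest.

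**Figure D1:**
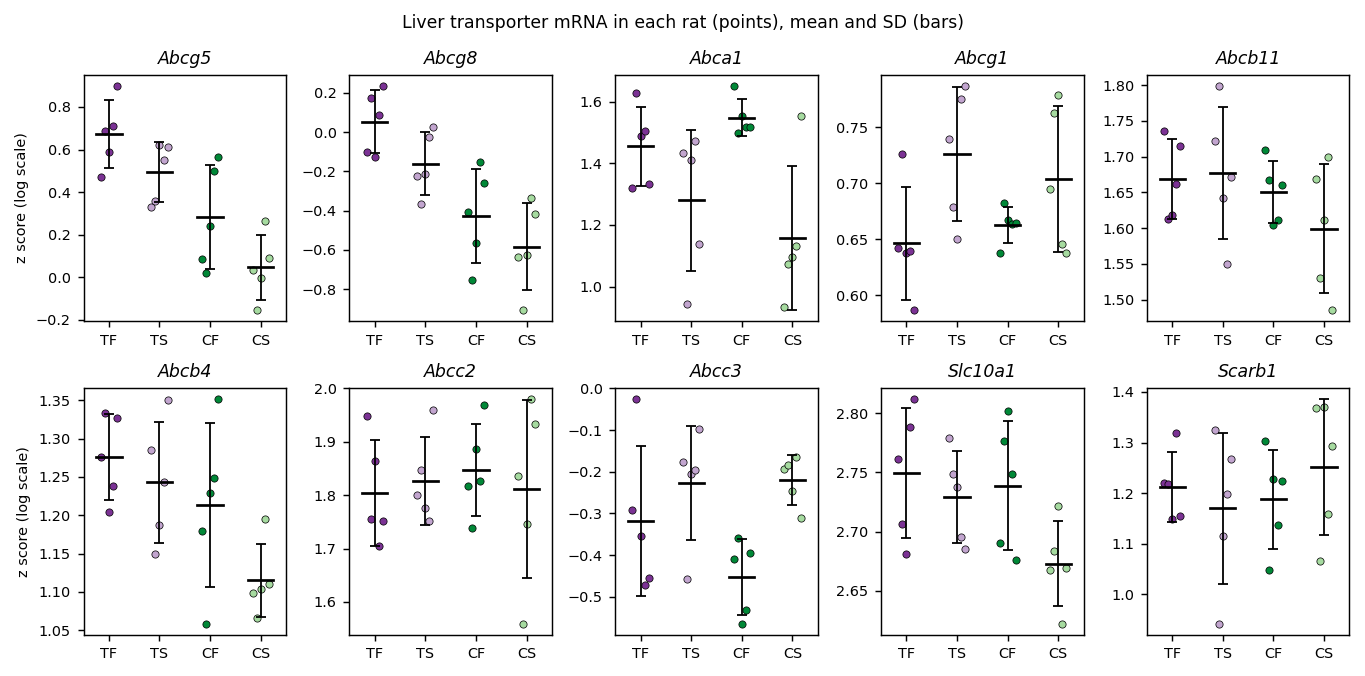
Liver mRNA of the 10 transporters as z scores on a log scale. Points are single rats, black lines and bars are the mean and SD of 5 rats in the TF, TS, CF and CS groups, and each panel has its own vertical axis. Mean Abcg5 was 0.672 in TF and 0.0465 in CS, while Slc10a1 lay between 2.62 and 2.81 in all 20 rats.

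Abcg5 encodes one of the 2 chains of the sterol exporter. Its z scores were 0.47, 0.69, 0.59, 0.71 and 0.90 in TF rats and 0.33, 0.36, 0.62, 0.55 and 0.61 in TS rats. They were 0.085, 0.019, 0.24, 0.50 and 0.56 in CF rats and 0.035, -0.15, -0.0030, 0.27 and 0.089 in CS rats. All 10 tofu rats lay above the mean of the casein rats, and 2 casein rats, both fed fish oil, reached into the range of the tofu rats.

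The group means of Abcg5 were 0.672 ± 0.159 in TF, 0.495 ± 0.141 in TS, 0.282 ± 0.244 in CF and 0.0465 ± 0.153 in CS (SD, n = 5 each). Neighbours in this order overlapped in their single rats. Over both oils the mean was 0.584 on tofu and 0.164 on casein, a difference of 0.42 (SE 0.076, 95% interval 0.26 to 0.58) or 2.07-fold (interval 1.57 to 2.73). The difference was called by limma with a Benjamini-Hochberg adjusted p of 0.0118 over all 31039 probe sets. It stayed called without any 1 of the 20 rats, and was 0.42 with an adjusted p of 0.0750 without the 3 arrays least correlated with the rest, which were all of tofu-fed rats. The CS mean lay just above the top array median (0.022), and no measure of background was at hand. The folds of Abcg5 are therefore uncertain.

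Abcg8 encodes the other chain. Its z scores were -0.10, 0.17, -0.13, 0.089 and 0.24 in TF rats and -0.22, -0.37, -0.21, -0.023 and 0.024 in TS rats. In CF rats they were -0.41, -0.75, -0.56, -0.15 and -0.26, and in CS rats -0.63, -0.91, -0.63, -0.33 and -0.42. Again all 10 tofu rats lay above the casein mean, but the sides overlapped. Casein rats CF-6, CF-7 and CS-6 lay above TS-2, the lowest tofu rat. Tofu rats TS-1, TS-2 and TS-4 lay below CF-6, the highest casein rat. The number after a group name is the rat's number in the labels.

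Mean Abcg8 was 0.0532 ± 0.162 in TF, -0.161 ± 0.160 in TS, -0.427 ± 0.240 in CF and -0.584 ± 0.223 in CS (SD, n = 5 each), the same order of diets as for Abcg5. The protein effect was 0.45 in z (SE 0.084, interval 0.28 to 0.63, limma adjusted p = 0.0147). No fold is given, because 3 of its 4 group means lay below the top array median (0.022) and the files hold no measure of background. The call was kept without any 1 rat. It was lost without the 4 rats whose 5′ beta-actin control was low, TF-3, TS-1, CF-1 and CS-1 (0.48, adjusted p = 0.0790), and without the 3 least correlated arrays (0.44, adjusted p = 0.0750).

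So 2 of the 10 transporters were called higher on tofu and none lower. Over all probe sets 0.557% were called for protein in either direction and 0.3% higher. At an unadjusted p under 0.05 the count was 3 of 10, against 10.2% of all probe sets. The median difference over the 10 transporters was 0.041, against 0.012 over all probe sets.

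**Figure D2:**
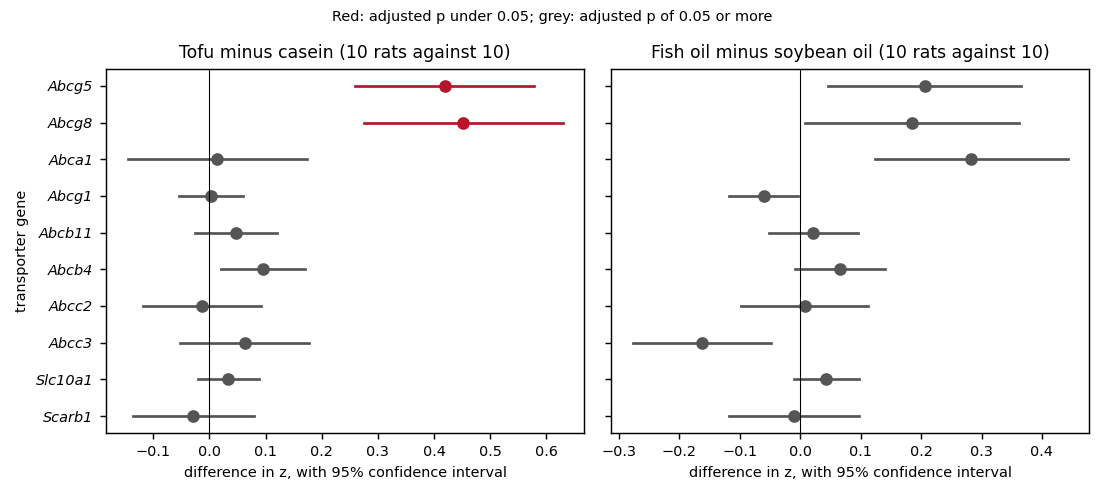
Differences in z between protein sources (left, tofu minus casein) and oils (right, fish oil minus soybean oil) for each transporter, as points with 95% confidence intervals over 20 rats. Red points passed an adjusted p of 0.05, which were Abcg5 at 0.42 and Abcg8 at 0.45 on the left and none on the right.

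For the oil source the sterol pair also had differences above 0, which did not pass the test. Abcg5 averaged 0.477 on fish oil and 0.271 on soybean oil, a difference of 0.21 (interval 0.047 to 0.37, unadjusted p = 0.0141, limma adjusted p = 0.703). For Abcg8 it was 0.19 (interval 0.0086 to 0.36, adjusted p = 0.882). The interaction, the oil effect on tofu minus that on casein, was -0.059 for Abcg5 (interval -0.38 to 0.26) and 0.057 for Abcg8 (interval -0.30 to 0.41), intervals wide enough to hold effects as large as the oil effect itself.

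Set against the CS rats, the rats given both foods differed most in this pair. Abcg5 was higher in TF than in CS by 0.63 in z (2.95-fold, interval 2.0 to 4.37, limma adjusted p = 0.00897), and Abcg8 by 0.64 (adjusted p = 0.0171). These were the 2 transporters called in that comparison, where 0.457% of all probe sets were, and 5 of 10 had an unadjusted p under 0.05, against 9.66%. The call of Abcg8 there did not hold without rat TF-6, TF-7 or CS-2 (adjusted p = 0.0510, 0.0589 and 0.0535), and that of Abcg5 was lost without the 3 least correlated arrays (0.65, adjusted p = 0.0608). The fold of Abcg5 here rests on its CS mean of 0.0465, which lay close to the top array median (0.022).

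The groups of TF and CS rats did not overlap in Abcg5, Abcg8 and Abcb4, which is 3 of 10 transporters against 2.25% of all probe sets. For TS against CS the difference was 0.45 in Abcg5 (adjusted p = 0.199) and 0.42 in Abcg8 (adjusted p = 0.304). None of the 10 was called by limma there, against 0.0709% of all probe sets, with 3 under an unadjusted 0.05 against 7.15%, and only Abcg5 had groups that did not overlap, against 1.36%. For TF against CF the differences were 0.39 (adjusted p = 0.351) and 0.48 (adjusted p = 0.245). Again no transporter was called, against 0.0677% of all probe sets, with 2 under an unadjusted 0.05 against 6.9%, and Abcg8 alone had groups that did not overlap, against 1.52%. These comparisons of 5 rats with 5 share the CS rats or parts of the protein effect and are not separate evidence of it.

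The levels of the pair went together from rat to rat. Across the 20 rats Abcg5 and Abcg8 had r = 0.94, and r = 0.84 after each group's mean was taken off. Abcb4, the phospholipid floppase, followed the same rats, with r = 0.82 to Abcg5 and 0.83 to Abcg8, or 0.69 and 0.76 within groups. The next highest of the 45 pairs was Abcg1 with Abcc3 at 0.60. The values of a rat share 1 array, so its quality enters both sides of a correlation, and these are descriptions without a test.

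**Figure D3:**
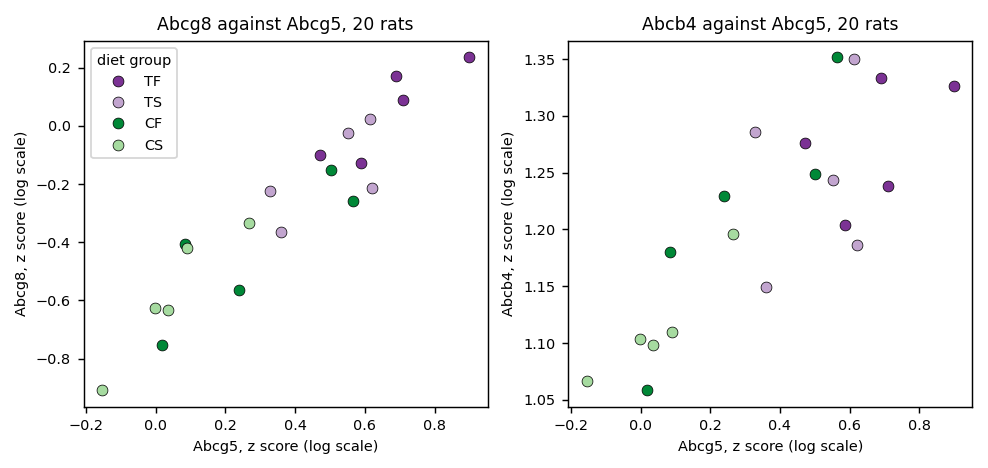
Abcg8 (left) and Abcb4 (right) against Abcg5 in z scores, 1 point per rat coloured by diet group. Both rise with Abcg5, with r = 0.94 and 0.82 over 20 rats, and the CS rats lie at the lower left of both panels.

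Of 14215 genes compared, the ones most like Abcg5 over the 20 rats were Abcg8 (r = 0.94), St8sia3 (r = 0.90), a sialyltransferase, and Casp6 (r = 0.86), a caspase. Those most like Abcg8 were Abcg5, Tinf2 (r = 0.91), a telomere-binding protein, and St8sia3 (r = 0.89).

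Abca1, which hands cholesterol and phospholipid to lipid-poor apolipoprotein A-I, had the largest difference between oils of the 10 in its brightest probe set. The values were 1.32, 1.63, 1.49, 1.5 and 1.33 in TF rats and 1.43, 0.94, 1.41, 1.47 and 1.14 in TS rats. In CF rats they were 1.65, 1.5, 1.56, 1.52 and 1.52, and in CS rats 0.93, 1.07, 1.10, 1.13 and 1.56. All 10 fish oil rats lay above the mean of the soybean oil rats, and rat CS-7 stood in the range of the CF rats, apart from the other 4 CS rats.

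The mean of this probe set was 1.502 on fish oil and 1.22 on soybean oil, a difference of 0.28 (1.63-fold, interval 1.24 to 2.15, unadjusted p = 0.00147, limma adjusted p = 0.319). Without rat CS-7 it was 0.33 with an adjusted p of 0.0403, the 1 fit of 20 with a rat left out in which a transporter was called for the oil. Between proteins the mean was 1.37 on tofu and 1.35 on casein (difference 0.014, interval -0.15 to 0.17).

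The 4 Abca1 probe sets did not read alike. The brightest and the faintest were higher on fish oil, by 0.28 and 0.23, while the other pair was lower, by differences of -0.16 and -0.17. None of the 4 was called, with adjusted p-values from 0.319 to 0.654. Over the 20 rats the brightest and the faintest had r = 0.84 with each other and the middle pair r = 0.96, and the brightest had r = -0.75 with either of the middle pair. Rat CS-7 was the highest CS rat in the first pair (1.56 and 0.34) and the lowest in the second (0.98 and 0.16). The transcript parts that these probe sets read were not examined, so the direction of Abca1 mRNA on fish oil is not settled by these values.

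**Figure D4:**
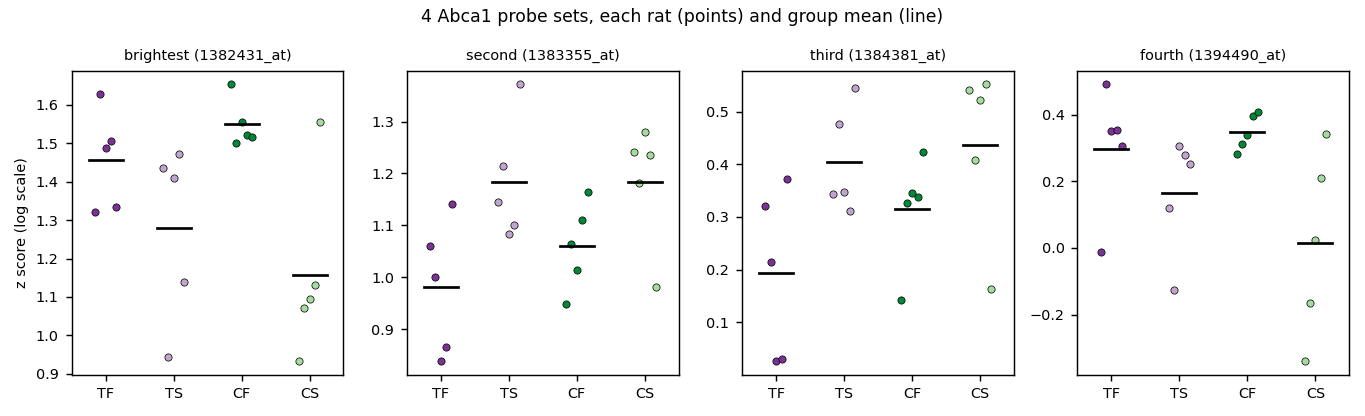
The 4 probe sets annotated to Abca1, ordered by mean signal, in each rat (points, z score on a log scale) with group means (lines) for TF, TS, CF and CS. The brightest and the faintest lie higher in TF and CF than in TS and CS (differences of 0.28 and 0.23 between oils), while the middle pair lies lower (-0.16 and -0.17).

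Abcg1, which passes cholesterol to HDL, ran from 0.59 to 0.73 in z on fish oil (median 0.65) and from 0.64 to 0.79 on soybean oil (median 0.72). The difference was -0.060 (interval -0.12 to -0.0030, unadjusted p = 0.0403, limma adjusted p = 0.879), and its other 2 probe sets had differences of 0.067 and 0.041. Scarb1, the HDL receptor, ran from 1.05 to 1.32 on fish oil and from 0.94 to 1.37 on soybean oil. Its intervals reached from -0.14 to 0.079 between proteins and from -0.12 to 0.097 between oils, and both sides overlapped throughout.

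In the canalicular pumps the differences were smaller. Abcb4 averaged 1.28 ± 0.056 in TF, 1.24 ± 0.079 in TS, 1.21 ± 0.107 in CF and 1.11 ± 0.048 in CS (SD, n = 5 each), which is the order of diets seen in the sterol pair. It had 1.20 to 1.33 in TF rats and 1.07 to 1.20 in CS rats, with no overlap (difference 0.16 or 1.32-fold, limma adjusted p = 0.236). The protein effect was 0.095, 1.18-fold (interval 1.04 to 1.34), with 9 of 10 tofu rats above the casein mean and an adjusted p of 0.337.

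Abcb11, the bile salt export pump, had a protein effect of 0.048 (interval -0.025 to 0.12, adjusted p = 0.690) and an oil effect of 0.021 (interval -0.052 to 0.095). Abcc2, which exports bilirubin and other conjugates, had a protein effect of -0.014 (interval -0.12 to 0.091) and an oil effect of 0.0071 (interval -0.098 to 0.11). Rat CS-2 was the lowest of all rats in Abcc2, at 1.56, and also in Abcg5 and Abcg8.

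On the blood side Abcc3 was fainter than the array medians and had a negative oil difference. It measured -0.29, -0.026, -0.35, -0.47 and -0.46 in TF rats and -0.18, -0.46, -0.21, -0.20 and -0.097 in TS rats. It measured -0.41, -0.36, -0.56, -0.53 and -0.40 in CF rats and -0.19, -0.18, -0.25, -0.16 and -0.31 in CS rats. CF and CS rats did not overlap, while TF and TS rats did.

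For Abcc3 the oil effect was -0.16 (SE 0.055, interval -0.28 to -0.048, unadjusted p = 0.00788, limma adjusted p = 0.623). CF minus CS was -0.23 with an adjusted p of 1.0, and among all probe sets 0.773% had CF and CS groups that did not overlap. Slc10a1, the sodium-dependent bile salt uptake carrier, spanned 2.68 to 2.81 on tofu and 2.62 to 2.80 on casein, differing by 0.034 between proteins (interval -0.021 to 0.088) and by 0.043 between oils (interval -0.011 to 0.097). These intervals leave room for differences of up to about 0.1 in z.

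For the oil, then, limma called 0 of the 10 transporters, where 0.193% of all probe sets were called, and 5 of 10 had an unadjusted p under 0.05, against 5.55% of all probe sets. In the brightest probe sets these were Abcg5, Abcg8 and Abca1 with positive and Abcg1 and Abcc3 with negative differences. The signs of Abca1 and Abcg1 turn in other probe sets of the same gene, as given above. For Abcg1 those were fainter, with mean z of 0.034 and -0.32 against 0.68 (limma unadjusted p = 0.277 and 0.122). Neither gene has a settled direction. Between CF and CS 0 were called (0.0451% of all probe sets) and 3 had an unadjusted p under 0.05 (3.52%). Between TF and TS 0 were called (0.0677%) and 0 had an unadjusted p under 0.05 (5.83%). No probe set at all was called for the interaction (0%), where 0 transporters and 3.43% of all probe sets had an unadjusted p under 0.05.

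Among 53 measured partner genes of sterol and bile salt handling, of 63 listed, 1 was called for each factor, where 0.557% of all probe sets were called for protein and 0.193% for the oil. Nr1i3, the nuclear receptor CAR, rose on tofu, and Abcd3, a peroxisomal ABC transporter for acyl-CoA, rose on fish oil. For protein 11 partners had a positive and 2 a negative difference at an unadjusted p under 0.05, against 6.65% and 3.53% of all probe sets. By list, 4 of 6 genes of bile acid synthesis and conjugation, 3 of 8 sinusoidal carriers and 2 of 11 flippases, adaptors and sterol carriers were higher at that level. In the nuclear receptors and regulators it was Nr1i3 alone of 13. Of 8 canalicular and other ABC pumps 1 was higher and 1, Abcd3, was lower, and of 7 genes of HDL formation and cholesterol uptake 0 were higher and 1, the hepatic lipase gene Lipc, was lower.

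Nr1i3 averaged 0.870 ± 0.113 in TF, 0.715 ± 0.143 in TS, 0.544 ± 0.184 in CF and 0.206 ± 0.187 in CS (SD, n = 5 each). The protein effect was 0.42 (SE 0.068, limma adjusted p = 0.00551), and the order of diets was that of Abcg5 and Abcg8. Some partner genes that were not called also had this order, and its share over all probe sets was not counted. Abcd3 averaged 2.005 ± 0.088 in TF and 1.81 ± 0.102 in TS, and 2.10 ± 0.066 in CF and 1.93 ± 0.051 in CS. Its oil effect was 0.19 (SE 0.037, adjusted p = 0.0431), and the call was lost in 16 of 20 fits with a rat left out.

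Cyp7a1, the rate-limiting enzyme of bile acid synthesis, had means of 0.583 ± 0.273 in TF and 0.711 ± 0.450 in TS, and of -0.0290 ± 0.302 in CF and 0.0504 ± 0.473 in CS. Its protein difference of 0.64 was larger than that of any transporter but did not pass (SE 0.16, limma adjusted p = 0.0900), with a wide spread within each diet. The adjusted p ran from 0.0322 to 0.286 under other settings, and from 0.0646 to 0.156 with a rat left out. Nr1h3 (LXRα), the oxysterol receptor known to drive Abcg5, Abcg8 and Abca1, differed by 0.021 between proteins (adjusted p = 0.878) and 0.059 between oils (adjusted p = 0.937). Nr1h4 (FXR), the bile acid receptor, differed by -0.049 between proteins (interval -0.14 to 0.043) and its target Nr0b2 (SHP) by 0.25 (interval -0.12 to 0.62), with limma adjusted p-values of 0.761 and 0.678. The interval of Nr0b2 is wide enough to hold a difference as large as that of Abcg5. These are mRNA levels, and the activity of the receptors was not measured.

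Atp8b1, the canalicular aminophospholipid flippase, differed by 0.025 between proteins, the carrier Slco1a1 by -0.042 and Pdzk1, the adaptor of Scarb1, by 0.092, none of them called (adjusted p = 0.889, 0.883 and 0.424).

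**Figure D5:**
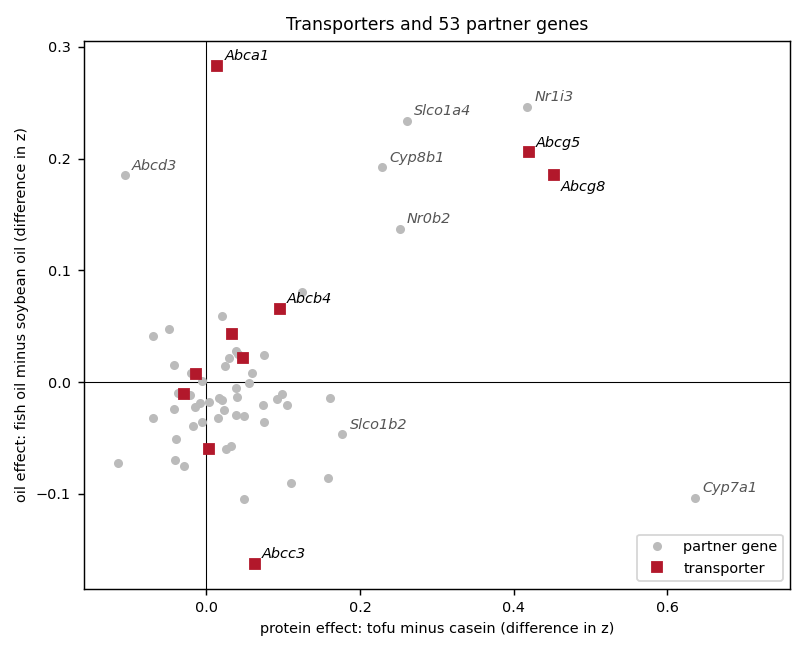
Protein effect (horizontal, tofu minus casein) against oil effect (vertical, fish oil minus soybean oil), both as differences in z, for the 10 transporters (red squares) and 53 partner genes (grey circles). Abcg5, Abcg8 and Nr1i3 lie together at a protein effect of 0.42 to 0.45, and Cyp7a1 lies farthest right at 0.64.

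The arrays correlated with each other at 0.929 to 0.965, no pair was identical, and the defining hepatocyte markers had mean z scores per rat between 3.06 and 3.37 in every group. In whole liver, fewer cells of a type and less RNA per cell cannot be told apart. Over all probe sets 58% had a positive protein difference and 49.1% a positive oil difference, and hepatocyte markers were higher on tofu in 5 of 5, none called. Liver endothelial markers were higher on tofu in 4 of 4 measured, none called (lowest adjusted p = 0.0635). Their mean per rat was 1.20 to 1.30 in TF and 1.22 to 1.37 in TS, against 1.13 to 1.23 in CF and 1.12 to 1.23 in CS. Kupffer cell and macrophage markers were higher on tofu in 5 of 5 and lower on fish oil in 5 of 5, none called, at 1.13 to 1.32 in TF, 1.17 to 1.43 in TS, 1.20 to 1.21 in CF and 1.16 to 1.35 in CS. Stellate cell and fibroblast markers were higher on tofu in 4 of 6 and lower on fish oil in 6 of 6, none called. Cholangiocyte markers, from cells that can hold bile salt carriers, were higher on tofu in 2 of 4 and lower on fish oil in 3 of 4, none called (median oil difference -0.045, lowest adjusted p = 0.657), and the T cell markers all lay below the array medians. The part of these cells in the transporter differences was not tested.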

How the data were processed

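Liver RNA of 20 rats was measured on Affymetrix Rat Genome GeneChip arrays, each holding 1 rat. The deposited unit is a z score: the authors had the SuperNORM service take signals to a log scale and standardize them within an array. How background was handled and how probes were summarised is not given in the sources used here. The number of arrays limits the precision.

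The table listed 31099 probe sets, including 57 controls, which were removed. Tests ran on the 31039 that had 3 or more values per group. The authors' analysis of variance used single Perfect Match cells, whose signals were not used here. A model of the 4 group means was fitted instead with limma 3.58.1 in R 4.3.3, and p-values were adjusted by Benjamini-Hochberg over all probe sets, with a threshold of 0.05. The protein effect is TF and TS minus CF and CS, and the oil effect TF and CF minus TS and CS. Folds were taken from differences in z on the stated scale, on which 0.2 is 1.41-fold. Symbols were updated by gene identifier to RefSeq (GRCr8), which also gave positions and the promoter sequence.

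The named genes were all 10 transporters, 8 partner genes chosen by name (1 of them is not reported here), partners with an adjusted p under 0.05, and the 3 genes most correlated with a called transporter. St8sia3, Casp6 and Tinf2 entered in that way. Members and lists were chosen with earlier results of these data known. The p-values set each difference against the spread between rats within groups, an estimate that limma steadies with all probe sets. The workflow was tested on simulated data. Alternatives were other scalings, bright probe sets only, another variance model, the rat number as a block, fits without doubted arrays, a threshold of 0.1, all probe sets of a gene, other probe sets, fits of only 2 groups, and leaving out each rat.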

Additional observations from a re-analysis of the deposited data

Results flagged for a closer look

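In 28 genes or probe sets, 112 diet groups in all, 1 rat stood far from the others of its group. Rat TF-4 had a Pdzk1 z score of 1.19, while the other 4 TF rats lay between 1.02 and 1.07. Such a distance arises by chance in about 5% of groups.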

How the results depend on the processing

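The count of 2 transporters called for protein held in 20 of 20 fits with 1 rat left out and was 1 with bright probe sets only, which dropped Abcg8 and Abcc3 from the fit. It was 1 without the 4 rats of low 5′ actin and 0 without the 3 least correlated arrays, which also leave fewer rats. For TF against CS the 2 became 1, 1 and 0 in the same fits, 1 in the fit of these 2 groups alone (Abcg8 adjusted p = 0.0591), and 1 to 2 with a rat left out. The count for the oil was 0 to 1 with a rat left out. Partner genes called for protein were 3 after median and interquartile range scaling, 2 after quantile normalization, 4 in bright probe sets, 3 with a variance trend and 1 to 3 with a rat left out. Those called for the oil were 0 without the low actin rats, 0 without the least correlated arrays and 0 to 1 with a rat left out.

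Over all probe sets, deviations from group means had a median r of 0.037 between rats of the same number (22 pairs, 1 above 0.1). Between rats of other numbers it was -0.0080 (128 pairs, 8 above 0.1). The numbers were not taken to pair the samples. Single values did go with the number. The 4 rats of low 5′ actin were the lowest numbered of each group: TS-1, CF-1, CS-1 and TF-3, as TF had no rat 1 or 2. The rats numbered 2 were the lowest of TS, CF and CS in Abcg8, Abcb4 and Scarb1. With the rat number as a block, TS against CS had 2 transporters called (Abcg5 adjusted p = 0.0187, Abcg8 0.0387), and the partner counts for protein and oil were both 0 (Nr1i3 adjusted p = 0.0638, Abcd3 0.112). The cause of these changes was not tested.

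Values that changed sign were those of differences that were not called. Under leaving out a rat the ranges were -0.014 to 0.064 for Abca1, -0.0072 to 0.012 for Abcg1, -0.045 to 0.0073 for Abcc2 and -0.0037 as the lowest for Atp8b1 (protein), -0.024 to 0.028 for Abcc2 and -0.039 to 0.0087 for Scarb1 (oil), -0.12 to 0.012 for Abcg5, -0.025 to 0.14 for Abcg8 and -0.10 to 0.0043 for Abcc2 (interaction), and -0.040 to 0.051 for Abcc3 (TS against CS). With the block they were -0.026 for Abca1 (protein), -0.030 for Abcc2 (oil), -0.032 for Abcg8 (interaction) and -0.0013 for Abcb4 (TF against TS). Without the low actin rats they were -0.0034 for Abca1, -0.0027 for Abcg1 and 0.012 for Slco1a1 (protein), and -0.0072 for Abcc2 and 0.0079 for Scarb1 (oil). Without the least correlated arrays they were -0.0025 for Abca1 and -0.017 for Abcg1 (protein) and 0.011 for Scarb1 (oil). Scaling to the same median and interquartile range gave -0.0051 for Abcg1 (protein), 0.0015 for Scarb1 (oil) and 0.0034 for Slc10a1 (interaction). Quantile normalization gave -0.00039 for Abcg1, -0.00098 for Nr1h3 and -0.031 for Slc10a1 (protein) and -0.0044 for Abcc2 (oil). The mean of all probe sets gave -0.013 for Abca1 and -0.019 for Abcg1 (protein), 0.016 for Abcg1 (oil) and -0.027 for Abca1 (TF against TS). Other probe sets gave -0.040 and -0.078 for Abca1 and -0.056 and -0.0042 for Abcg1 (protein), -0.16 and -0.17 for Abca1 and 0.067 and 0.041 for Abcg1 (oil), and 0.020 for Abcg1 (interaction).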

Other observations

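Abcg1 and Abca1, chosen here after their values were seen, were each set against all 14215 other genes over the 20 rats. The genes most like Abcg1 were Cfp (r = 0.85), the complement protein properdin, Unc93b1 (r = 0.83), which carries endosomal Toll-like receptors, and Clec4f (r = 0.83) and C1qa (r = 0.81), which mark Kupffer cells and macrophages. Abcg1 had r = 0.83 with the mean of the 5 measured Kupffer cell and macrophage markers, and r = 0.83 within diet groups. The other transporters ran from -0.24 (Abca1) to 0.61 (Abcc3) against the same mean. Those markers were lower on fish oil in 5 of 5, none called (lowest adjusted p = 0.895). The brightest Abcg1 probe set had an oil difference of -0.060, also not called, and its other 2 probe sets had 0.067 and 0.041. The gene most like Abca1 in its brightest probe set was Nr1h3 (r = 0.77), a gene already in the partner list. These values of a rat share an array and are descriptions without a test.

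Abcg8 and Abcb4 had r = 0.68 and 0.62 with the mean of the 4 endothelial markers over 20 rats, and r = 0.56 and 0.53 within groups. Abcg5 had r = 0.60, and 0.34 within groups. Within groups the transporters ran from -0.44 (Slc10a1) to 0.63 (Abcc3), with Scarb1 at 0.45. Against the mean of the 5 hepatocyte markers they ran from -0.54 (Abcg5) to 0.52 (Slc10a1) within groups, with Abcb4 at -0.33 and Abcg8 at -0.23. Over 20 rats Abcg5, Abcb4 and Abcg8 had r = -0.039, -0.040 and 0.10 with that mean. What lies behind these correlations was not tested.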
